A study of Homo sapiens with 18 samples.

Results

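Intermediate filament genes outside the keratin family were examined in the pancreatic ductal adenocarcinoma (PDAC) cell lines Panc1 and Panc89. They comprised *NES* (nestin), *VIM* (vimentin), *SYNM* (synemin), *DES* (desmin), *INA* (internexin alpha), *NEFL* and *NEFM* (the light and medium neurofilament chains), and the lamin genes *LMNA*, *LMNB1* and *LMNB2*. The genes were chosen by symbol, and all 10 were found among the 40266 gene symbols of the expression table. A filter on low values, a TPM value (a length-corrected share of all transcripts of a library) of 1 or more in 3 or more of the 18 libraries, was passed by 7 of the 10 and by 16093 symbols in all. *DES*, *INA* and *NEFM* stayed under it and are given as values without a test. *NEFL* passed only through its 3 Panc89 Holoclone libraries, so its difference from the other groups follows in part from the filter. *VIM* passed only through the 9 Panc1 libraries, and *NES* through these and 1 Panc89 library. Their differences between the lines therefore also follow in part from the filter.

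Intermediate filaments are flexible cytoskeletal ropes assembled from coiled-coil dimers, and cells exchange their subunits according to lineage. Keratins fill epithelial cells, vimentin fills mesenchymal cells and is widely used as a marker of epithelial–mesenchymal transition (EMT), and neurofilaments and desmin belong to neurons and muscle. Nestin is a long-tailed subunit of neural and other progenitor cells which assembles together with vimentin and serves as a stemness marker in PDAC. Lamins form the meshwork under the inner nuclear membrane, with A-type lamins (*LMNA*) typical of differentiated and stiff tissue and B-type lamins (*LMNB1*, *LMNB2*) present in nearly all cells.

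Panc1, derived from a primary PDAC, was the mesenchymal-like model of the study, and Panc89, derived from a lymph node metastasis, was its epithelial model. Each line was sequenced as parental cells, Holoclone cells (the cancer stem cell variant) and Paraclone cells (the non-stem variant), untreated and with 3 replicates per group. Holoclone and Paraclone cells of a line each go back to 1 single cell, so a difference between the variants cannot be told apart from a difference between any 2 clones of that line. The replicates are RNA of different passages, and the p-values therefore measure the spread between passages of 1 culture lineage. In such bulk RNA, fewer cells carrying a transcript and less transcript per cell cannot be told apart.

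All 10 genes are single loci on GRCh38 (GENCODE 44). *LMNA* (chr1:156082573-156140081) and *NES* (chr1:156668763-156677407) share a chromosome arm, with 528682 bases from the end of *LMNA* to *NES*. *VIM* (chr10:17228241-17237593) overlaps 1778 bases of the antisense lncRNA gene *VIM-AS1* (chr10:17214239-17230018). The other loci are *INA* (chr10:103277138-103290346), *SYNM* (chr15:99098217-99135593), *DES* (chr2:219418377-219426735), *LMNB1* (chr5:126776623-126837020) and *LMNB2* (chr19:2427638-2456959), with the neighbours *NEFM* and *NEFL* given where they are described. In the canonical transcripts, nestin and synemin are the long chains of the group with 1621 and 1565 residues, whereas vimentin has 466 and desmin 470.

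*NES*, *VIM* and *SYNM* are the cytoplasmic filament genes with the widest range of mRNA between the groups, and the 250 bases before their RefSeq starts are shown for that reason (RefSeq, GRCh38.p14, coding strand, 5′ to 3′). The windows are chr1:156677408-156677657 for *NES* (minus strand), chr10:17227991-17228240 for *VIM* (plus strand, inside the span of *VIM-AS1*) and chr15:99104830-99105079 for *SYNM* (plus strand). The *SYNM* window lies inside the GENCODE span of the gene, since the RefSeq start is farther downstream. Capitals mark 4 searched motifs on either strand, the GC box GGGCGG, the TATA box TATAAA, the CCAAT box CCAAT and the E-box CAGGTG, and overlapping matches run together.
NES: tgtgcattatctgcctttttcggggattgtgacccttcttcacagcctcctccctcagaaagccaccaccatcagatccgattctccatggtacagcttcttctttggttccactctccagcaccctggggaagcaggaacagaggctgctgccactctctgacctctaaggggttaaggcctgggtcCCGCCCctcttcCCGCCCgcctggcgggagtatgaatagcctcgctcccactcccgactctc
VIM: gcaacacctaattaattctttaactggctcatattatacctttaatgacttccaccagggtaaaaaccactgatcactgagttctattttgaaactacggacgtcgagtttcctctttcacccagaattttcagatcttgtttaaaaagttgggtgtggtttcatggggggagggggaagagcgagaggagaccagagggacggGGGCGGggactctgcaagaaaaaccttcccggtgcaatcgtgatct
SYNM: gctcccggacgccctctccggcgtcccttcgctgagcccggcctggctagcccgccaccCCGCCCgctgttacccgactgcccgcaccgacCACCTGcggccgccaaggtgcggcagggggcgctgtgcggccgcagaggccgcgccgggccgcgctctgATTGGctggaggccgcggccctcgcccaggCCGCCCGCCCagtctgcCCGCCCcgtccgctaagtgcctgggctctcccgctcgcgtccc
The *NES* window holds 2 GC boxes and none of the other motifs, the *VIM* window 1 GC box, and the *SYNM* window 4 GC boxes, 1 CCAAT box and 1 E-box. Among 34943 RefSeq windows of the same length, 42.5% hold a GC box, 10.8% a TATA box, 32.0% a CCAAT box and 17.5% an E-box. The *NES* and *VIM* windows have 8 CpG dinucleotides each, below the median of 11 over all windows, and the *SYNM* window has 34, more than 93.2% of the windows. These are matches of letters only. RefSeq windows were found for 7 of the 10 genes, with none for *DES*, *NEFL* and *NEFM*.

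Summed TPM per library lay between 985339 and 988066, and 12932 to 14199 genes per library reached 1 TPM. TPM hold no read totals, so the depth behind each value is unknown. The 8 markers fixed for pancreatic ductal epithelium (such as *KRT8*, *KRT18*, *KRT19* and *EPCAM*) all reached 1 TPM in every group, summing to 2790 to 7309 TPM per library. Markers of other cell types were partly present. Of 8 fibroblast, 10 muscle, 10 neuron, 6 glia, 4 endothelial and 4 leukocyte markers, 5, 5, 5, 4, 2 and 2 stayed below 1 TPM in all 18 libraries, and *MYOD1* (muscle) and *SOX10* (glia) were listed at 0 throughout. The fibroblast markers summed to 1.44 to 27.6 TPM, the muscle markers to 143 to 361 TPM, and the endothelial markers to at most 0.416 TPM in Panc1 and 55.2 to 69.1 TPM in parental Panc89 cells. In 4 libraries the mean log2(TPM + 1) of 16 proliferation genes lay more than 1 above both other replicates of the group: Panc1 parental replicate 2 (6.90), Panc1 Paraclone replicate 1 (6.74), Panc89 Holoclone replicate 1 (6.94) and Panc89 Paraclone replicate 2 (6.74). The effect of leaving these 4 libraries out is given beside the results.

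Single markers differed between the variants of a line even where the sums did not show it. In Panc1 Holoclone against Paraclone cells the neuron marker *MAP2* (4.02, limma adjusted p = 4.37e-06) and the epithelial marker *EPCAM* (3.48, limma adjusted p = 1.10e-10) were higher, and the muscle and myofibroblast marker *ACTA2* (−1.70, limma adjusted p = 0.000151) and the macrophage marker *CD68* (−1.15, limma adjusted p = 0.000758) were lower, on the log2(TPM + 1) scale used for all differences. Of 8 tested epithelial markers 4 were higher and 2 lower, against 27.4% and 9.97% of all tested genes. The lower ones included *KRT19* (−2.48, limma adjusted p = 7.18e-06). Of the tested markers of neurons (5), muscle (5), fibroblasts (1), glia (2), endothelium (2) and leukocytes (2), 1, 1, 1, 0, 0 and 0 were higher and 1, 1, 0, 1, 0 and 1 lower. In Panc89 Holoclone against Paraclone cells, *MUC1* (−3.51, limma adjusted p = 1.15e-09), *TUBB3* (−1.29, limma adjusted p = 0.00283) and *CD68* (−1.20, limma adjusted p = 0.000580) were lower and *SLC1A3* (2.23, limma adjusted p = 1.07e-05) was higher. Here 0 of 8 epithelial markers were higher and 6 lower (22.4% of all tested genes higher and 13.3% lower). In the other lists, in the order given above, 1, 1, 0, 2, 0 and 0 were higher and 1, 2, 1, 0, 2 and 2 lower. The part of these markers in the filament differences between these variants, such as those of *NES*, *VIM*, *SYNM* and *NEFL*, was not tested.

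Summed over the 10 genes, filament mRNA was abundant in Panc1 and scarce in Panc89. The sum lay between 2632 and 5946 TPM in Panc1 libraries and between 348 and 722 TPM in Panc89 libraries, without overlap. Its make-up also differed. *VIM* held 76.8% to 86.1% of the sum in Panc1 and at most 0.117% in Panc89, where *LMNA* alone held 53.8% to 78.1%. Lamins held 98.8% to 99.5% of the sum in Panc89. The *KRT8* and *KRT18* mRNAs summed to 1084 to 2300 TPM in Panc89 and to 1497 to 3909 TPM in Panc1.

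**Figure D1:**
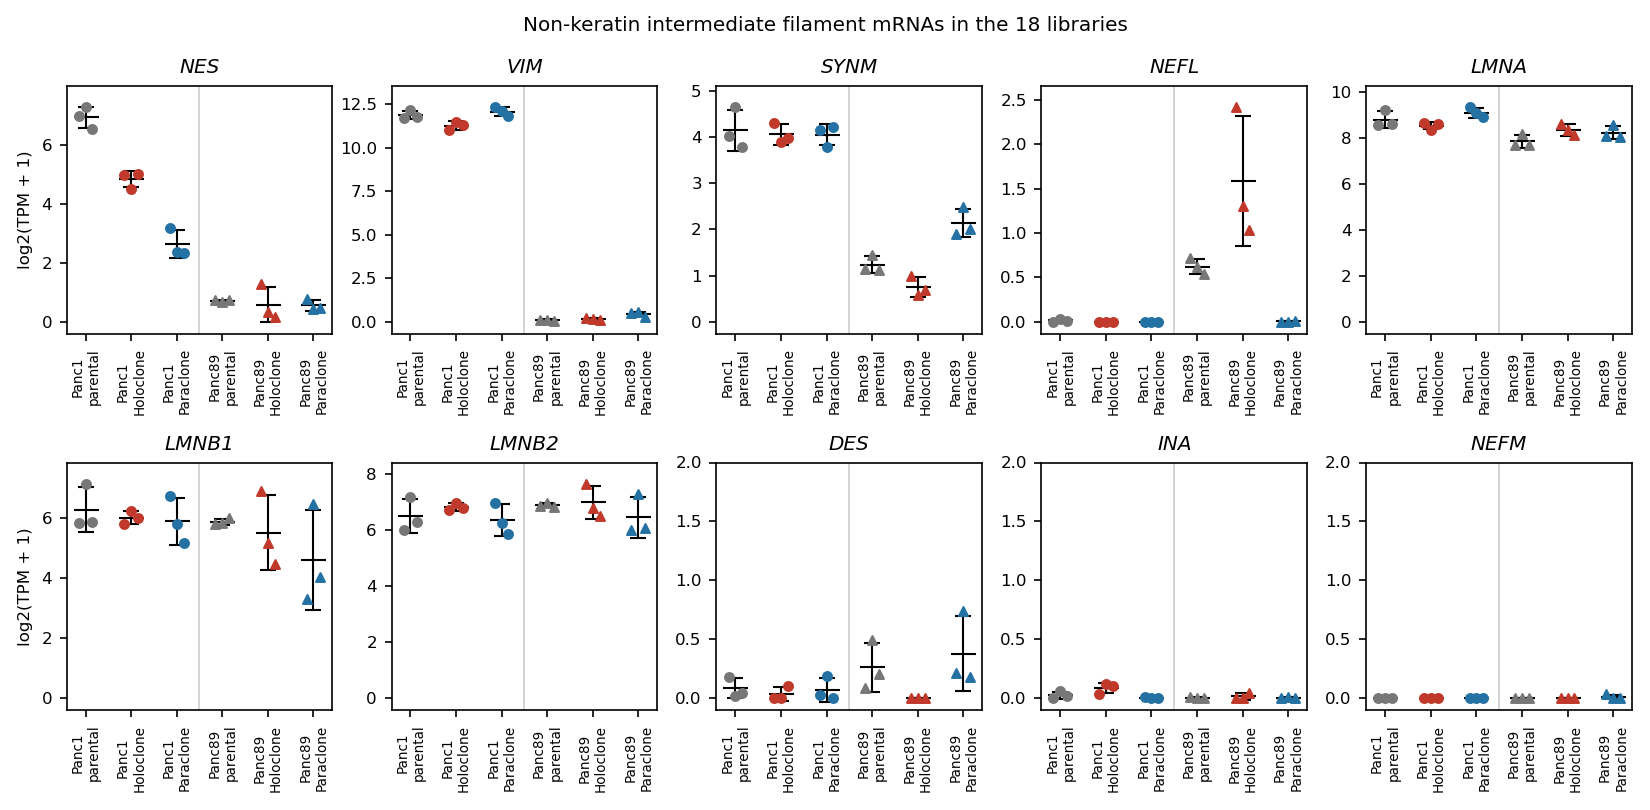
Level of each of the 10 genes, log2(TPM + 1) on the vertical axis, in the 6 groups. Circles are Panc1 libraries and triangles Panc89 libraries, bars show the mean and SD of 3 replicates, and each panel has its own scale. *NES* steps down from parental to Holoclone to Paraclone in Panc1, *VIM* separates the lines, *SYNM* and *NEFL* separate the Panc89 variants in opposite directions, and *DES*, *INA* and *NEFM* stay below 1.

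*NES* had a different level in each Panc1 variant and was near the bottom of the scale in Panc89. In parental Panc1 cells its level was 125, 152 and 91.3 TPM in replicates 1 to 3. In Panc1 Holoclone cells it was 30.5, 21.8 and 31.3 TPM, and in Panc1 Paraclone cells 8.00, 4.17 and 4.04 TPM. The 3 groups did not overlap, and parental cells were the highest and Paraclone cells the lowest. All 9 Panc89 libraries lay below the lowest Panc1 library, between 0.109 TPM and the 1.40 TPM of Holoclone replicate 1, the 1 Panc89 library above 1 TPM. Within Panc89 the groups overlapped, with means of 0.71 ± 0.03 in parental, 0.58 ± 0.60 in Holoclone and 0.57 ± 0.18 in Paraclone cells on the log2(TPM + 1) scale (SD, n = 3).

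On that scale, which understates fold changes of genes near 1 TPM, *NES* was higher in Panc1 Holoclone than in Panc1 Paraclone cells by 2.21 (SE 0.28, limma adjusted p = 2.13e-05). Against parental Panc1 cells the difference was −2.09 in Holoclone cells (limma adjusted p = 0.000160) and −4.30 in Paraclone cells (limma adjusted p = 2.30e-08). These 3 contrasts share their groups and are not independent of each other. In Panc89, the Holoclone minus Paraclone difference was 0.02, with a 95% interval from −0.59 to 0.62 (limma adjusted p = 0.981). The test of the difference between the lines gave −2.19 with an interval from −3.05 to −1.34 (limma adjusted p = 0.000575). Over 16 alternatives the Panc1 Holoclone against Paraclone difference stayed between 1.95 and 2.48, with adjusted p from 9.88e-07 to 0.00349. Between the lines, *NES* was lower in Panc89, with differences of −6.21 in parental, −4.25 in Holoclone and −2.06 in Paraclone cells, each with an adjusted p of at most 1.19e-05 in limma. *NES* passed the filter on low values mainly through Panc1 libraries, so these differences follow in part from the filter.

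*VIM* was among the most abundant mRNAs of every Panc1 library and nearly absent from Panc89. It stood at 3295, 4549 and 3492 TPM in parental Panc1 cells, 2021, 2854 and 2520.3 TPM in Panc1 Holoclone cells and 5044, 4319.7 and 3592 TPM in Panc1 Paraclone cells, which is rank 14 to 57 among all genes of a library. All 3 Holoclone libraries lay below all parental and Paraclone libraries, while parental and Paraclone libraries overlapped. In Panc89 the values were 0.0859, 0.0878 and 0.0221 TPM in parental cells, 0.176, 0.117 and 0.0618 TPM in Holoclone cells and 0.405, 0.456 and 0.222 TPM in Paraclone cells. Every Panc89 Paraclone library was above every parental and Holoclone library of that line, at a level below 0.5 TPM. The file gives no counts from which the reliability of such low values could be judged.

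In Panc1, the Holoclone minus Paraclone difference of *VIM* was −0.81 (SE 0.15, limma adjusted p = 0.000604), a ratio of 1.75 in favour of Paraclone cells on this scale. Against parental cells, *VIM* of Panc1 Holoclone cells was lower (−0.62, limma adjusted p = 0.0147). The latter call was lost without parental replicate 2 (adjusted p = 0.0743) and without Holoclone replicate 1 (adjusted p = 0.0809), with 0.1 TPM added before the logarithm (adjusted p = 0.144) and with these groups fitted alone (adjusted p = 0.140). Panc1 Paraclone cells differed from parental cells by 0.19, with an interval from −0.13 to 0.52 (limma adjusted p = 0.385). In Panc89, Holoclone and Paraclone cells differed by −0.28 with an interval from −0.60 to 0.04 (limma adjusted p = 0.168). With 0.1 in place of 1 TPM added before the logarithm, that difference was −1.07 (adjusted p = 0.00328). The Panc89 change minus the Panc1 change was 0.53 (limma adjusted p = 0.0679), which passed after upper quartile scaling (0.75, adjusted p = 0.00770) and turned to −0.26 with 0.1 TPM added (adjusted p = 0.608). Between the lines, *VIM* was lower in Panc89, with differences of −11.78 in parental, −11.09 in Holoclone and −11.62 in Paraclone cells. In parental cells that difference had the smallest limma p of all tested genes (adjusted p = 5.11e-17). *VIM* passed the filter on low values only through Panc1 libraries, so its difference between the lines follows in part from the filter.

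The antisense gene *VIM-AS1* had values of 1.74 to 2.62 on the log2(TPM + 1) scale in Panc1 and at most 0.20 in Panc89. Its Panc1 Holoclone minus Paraclone difference was −0.53 (limma adjusted p = 0.0120). The libraries were stranded, but the strand setting of the quantification is not given in the sources used here, so reads of the shared 1778 bases may have been divided between both genes.

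Vimentin was also set against the keratins of simple epithelia, as log2 of *VIM* TPM over the sum of *KRT8* and *KRT18* TPM within each library, a ratio which does not depend on the scaling of libraries. In Panc1 Holoclone cells this log2 ratio was −0.25, −0.25 and −0.01, so *VIM* and the keratin pair were close to equal. In Panc1 Paraclone cells it was 0.98, 1.52 and 1.26, and in parental Panc1 cells 0.55, 0.22 and 0.51. The Holoclone minus Paraclone difference was −1.43, with no overlap, and the exact permutation test (two-sided) gave p = 0.1, the smallest value 3 against 3 libraries allow. In Panc89 the log2 ratio lay between −16.36 and −12.04, and Holoclone and Paraclone libraries overlapped (difference −0.75, exact permutation p = 0.3). With 1 TPM added to both terms that difference turned to 0.636. Beside these ratios, *KRT8* and *KRT18* themselves were higher in Panc1 Holoclone than Paraclone cells by 0.75 and 0.50 (limma adjusted p = 0.0326 and 0.0473), calls which were lost after median-of-ratios scaling (adjusted p = 0.176 and 0.469). In Panc89 they were lower in Holoclone cells (−0.98 and −0.89, limma adjusted p = 0.00787 and 0.00180).

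**Figure D2:**
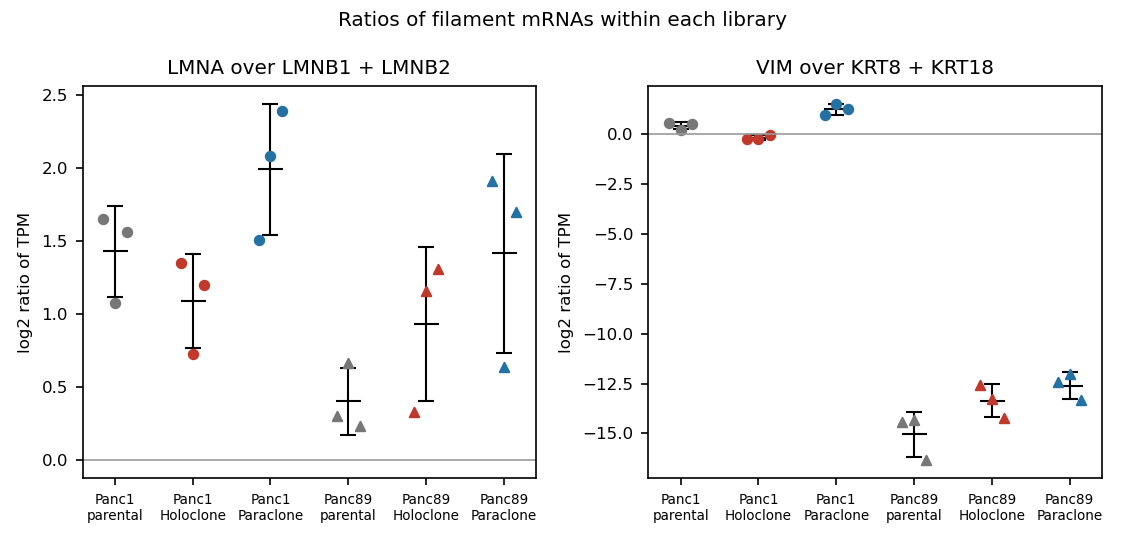
Log2 ratio of TPM within each library, *LMNA* over *LMNB1* plus *LMNB2* on the left and *VIM* over *KRT8* plus *KRT18* on the right, by group. Points are libraries, bars show the mean and SD of 3 replicates, and the grey line marks equal levels. The *VIM* ratio lies near 0 in Panc1 Holoclone cells, near 1 in Panc1 Paraclone cells and below −12 in Panc89, and the lamin ratio is above 0 in all 18 libraries.

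*SYNM*, which links vimentin and desmin filaments to cell adhesions, overlapped between the Panc1 variants but not between those of Panc89. In Panc1 the 9 libraries ranged from 12.7 to 23.9 TPM and the groups overlapped, with a Holoclone minus Paraclone difference of 0.00 and an interval from −0.48 to 0.48 (limma adjusted p = 1). In Panc89, parental cells had 1.19, 1.72 and 1.18 TPM, Holoclone cells 0.984, 0.493 and 0.609 TPM and Paraclone cells 2.76, 4.62 and 3.02 TPM. Paraclone libraries were the highest and Holoclone libraries the lowest, without overlap. *SYNM* was lower in Panc89 Holoclone than Paraclone cells (−1.38, SE 0.22, limma adjusted p = 0.000182), and higher in Paraclone than parental cells by 0.90 (limma adjusted p = 0.00961). The Holoclone against parental difference of −0.48 did not pass (limma adjusted p = 0.134). It passed without the 4 libraries of high proliferation level (−0.60, adjusted p = 0.0176). Calls over all genes in that comparison then rose from 3981 to 6157, and this alternative was chosen after seeing the data. The change between Holoclone and Paraclone cells differed between the lines by −1.39 (limma adjusted p = 0.00306). Compared with Panc1, *SYNM* was lower in Panc89, with differences of −2.91 in parental, −3.30 in Holoclone and −1.92 in Paraclone cells, each with an adjusted p of at most 1.93e-06 in limma.

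*NEFL* (chr8:24950955-24956721), the core subunit of neurofilaments, was found in Panc89 only in parental and Holoclone cells apart from 1 trace value. Its levels were 0.642, 0.530 and 0.453 TPM in parental and 4.34, 1.47 and 1.06 TPM in Holoclone cells, and 0, 0 and 0.00940 TPM in Paraclone cells. In Panc1 it was listed at 0 in all Holoclone and Paraclone libraries and reached at most 0.0259 TPM in parental cells. The Holoclone minus Paraclone difference in Panc89 was 1.58 (SE 0.24, limma adjusted p = 9.03e-05), and 1.17 without the 4 libraries of high proliferation level, which include the highest *NEFL* library (adjusted p = 4.09e-05). Against parental Panc89 cells it was −0.62 in Paraclone cells (limma adjusted p = 0.0826, and 0.00254 without those libraries). Calls over all genes in that comparison rose from 3120 to 6245 without them. *NEFL* was higher in Holoclone than parental Panc89 cells by 0.97 (limma adjusted p = 0.00713), a call that was lost when these groups were fitted alone (adjusted p = 0.120). These Holoclone differences follow in part from the filter on low values, which *NEFL* passed only through its Panc89 Holoclone libraries. The difference between the lines in the Holoclone against Paraclone change, 1.58 (limma adjusted p = 0.00174), restates the Panc89 difference, since both Panc1 groups were at 0. Parental Panc89 exceeded parental Panc1 cells by 0.61 (limma adjusted p = 0.0341), and this call was lost without any 1 of the 6 parental libraries (adjusted p from 0.0523 to 0.0897). The error of these *NEFL* tests is pooled over 6 groups, whose SD was 0.73 in Panc89 Holoclone cells, 0.09 in parental Panc89 cells and close to or at 0 elsewhere, so it understates the spread among the Holoclone libraries.

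The remaining neuronal and muscle filament genes were at trace levels. *NEFM* (chr8:24913758-24919098), which joins *NEFL* in axons and lies 31857 bases from it, was listed at 0 in 17 of 18 libraries and at 0.0232 TPM in Panc89 Paraclone replicate 1. *INA*, a neuronal filament of early neurons, did not exceed 0.0903 TPM. It was listed at 0 in 9 libraries, and Panc1 Holoclone cells, with 0.0285, 0.0903 and 0.0752 TPM, were the only group with a value above 0 in every library. *DES*, the filament of muscle, was listed at 0 in all 3 Panc89 Holoclone libraries. It lay between 0.0634 and 0.410 TPM in parental and between 0.133 and 0.673 TPM in Paraclone cells of Panc89, and did not exceed 0.139 TPM in Panc1. Of the 10 neuron markers, 6 or 7 were below 1 TPM in each group, and their sum was 134 to 280 TPM in Panc1 and 21.1 to 43.0 TPM in Panc89. In Panc89 Holoclone cells, where *NEFL* was highest, that sum was 21.6 to 33.9 TPM. Any part of neuronal gene expression in the *NEFL* values was not tested.

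Lamin genes were the members that reached 1 TPM in all 18 libraries. *LMNA* had the highest level of the 3, with 377, 600.3 and 399 TPM in parental, 404, 331 and 396 TPM in Holoclone and 649, 550.3 and 479 TPM in Paraclone cells of Panc1. In Panc89 it had 208, 287 and 208 TPM in parental, 398, 326 and 278 TPM in Holoclone and 272, 382 and 266 TPM in Paraclone cells. The Panc1 Paraclone libraries lay above the Panc1 Holoclone libraries, and the Panc89 variants overlapped. *LMNA* was lower in Panc1 Holoclone than Paraclone cells (−0.56, SE 0.20, limma adjusted p = 0.0405). This call was kept without Paraclone replicate 3, but was lost without any other 1 of the 6 libraries (adjusted p from 0.0581 to 0.138) and without the filter on low values (adjusted p = 0.0777). It was kept after median-of-ratios scaling (−0.84, adjusted p = 0.00236). In Panc89 the difference was 0.13, with an interval from −0.31 to 0.56 (limma adjusted p = 0.676). Against Panc1, Panc89 cells had less *LMNA* as parental (−0.95, limma adjusted p = 0.000704) and as Paraclone cells (−0.87, limma adjusted p = 0.00159). For Holoclone cells the difference was −0.18 with an interval from −0.62 to 0.25 (limma adjusted p = 0.449).

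*LMNB1*, the B-type lamin most closely tied to dividing cells, varied more within groups than between them. It had 55.8, 138 and 56.8 TPM in parental, 53.7, 72.8 and 62.1 TPM in Holoclone and 103, 54.7 and 34.4 TPM in Paraclone cells of Panc1. In Panc89 it had 53.8, 55.4 and 61.9 TPM in parental, 116, 34.4 and 21.0 TPM in Holoclone and 8.83, 87.3 and 15.1 TPM in Paraclone cells. In each of the groups with a wide spread, 1 library stood far above the others, and these were the 4 libraries with a high proliferation level. *LMNB2* followed the same libraries within a narrower range, from 56.9 to 147 TPM in Panc1 and from 63.2 to 201 TPM in Panc89. In limma, none of the 10 comparisons passed for *LMNB1* or *LMNB2* over all libraries, and every 95% interval included 0, so none had an unadjusted p under 0.05 either. There the SE of a difference between 2 groups was 0.70 for *LMNB1* and 0.38 for *LMNB2*.

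Lamin levels were set against the proliferation level of each library, the mean log2(TPM + 1) of 16 genes such as *MKI67*, *TOP2A* and *PCNA*, none of which is a lamin. Within Panc1 (n = 9 libraries), Pearson's r was 0.896 for *LMNB1* (Spearman's rho 0.883, exact permutation p = 0.000273 and 0.00308, adjusted 0.000409 and 0.00461). For *LMNB2* it was 0.964 (rho 0.983, exact permutation p = 4.68e-05 and 4.96e-05, adjusted 9.37e-05 and 0.000149). Within Panc89 (n = 9), r was 0.995 for *LMNB1* (rho 1.00, exact permutation p = 2.76e-06 and 5.51e-06, adjusted 1.65e-05 and 3.31e-05). For *LMNB2* it was 0.980 (rho 0.95, exact permutation p = 1.10e-05 and 0.000353, adjusted 3.31e-05 and 0.000705). For *LMNA*, r was 0.132 in Panc1 and 0.387 in Panc89 (rho 0.05 and 0.433, exact permutation p = 0.733 and 0.303 for r, 0.912 and 0.250 for rho, adjusted 0.733 and 0.364 for r, 0.912 and 0.300 for rho). These 6 relations were adjusted together by Benjamini-Hochberg. Without the 2 libraries farthest from the median proliferation level, r was 0.808 and 0.938 in Panc1 and 0.988 and 0.952 in Panc89 for *LMNB1* and *LMNB2*. It was 0.0159 and 0.478 for *LMNA*. The 9 libraries of a line come from 3 cultures and share a normalisation, so they are not fully independent. As a description of the spread within groups alone, the deviations from the group means had r of 0.969 to 0.997 for both B-type genes and of 0.735 and 0.799 for *LMNA*.

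**Figure D3:**
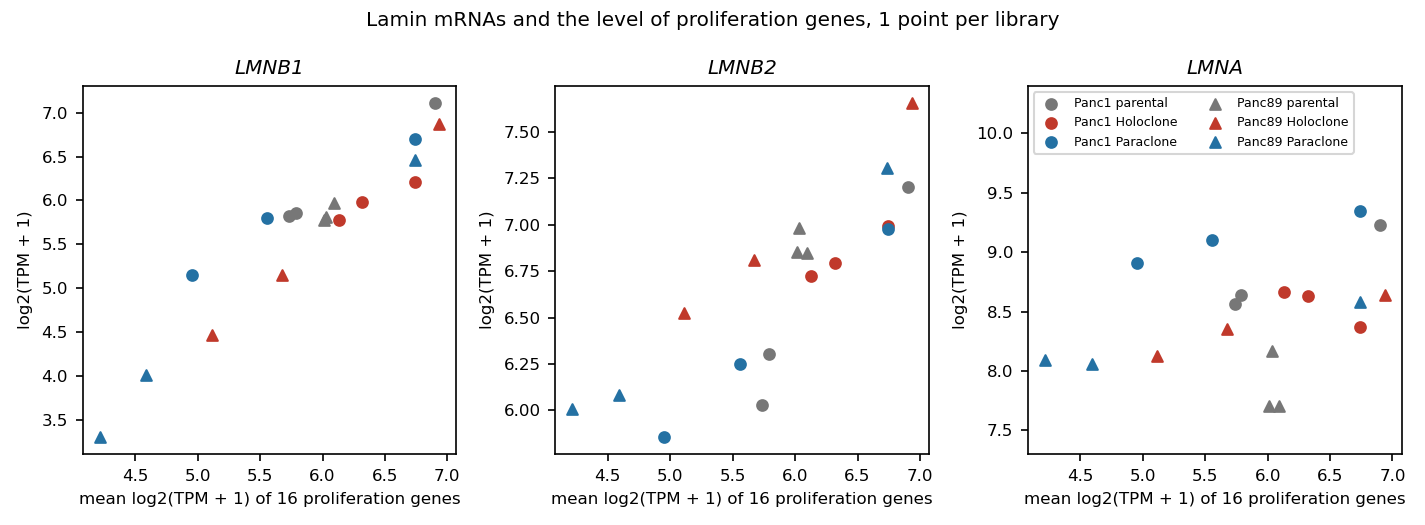
Level of *LMNB1*, *LMNB2* and *LMNA* (log2(TPM + 1), vertical axis) against the mean log2(TPM + 1) of 16 proliferation genes (horizontal axis). Each point is 1 library, with circles for Panc1, triangles for Panc89 and colours for the cell variant. *LMNB1* and *LMNB2* climb with the proliferation level in both lines, and *LMNA* shows no such order across the groups of a line.

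The 4 libraries of high proliferation level were also left out, an alternative chosen after seeing the data. Since B-type lamins followed the level by which these libraries were chosen, leaving them out narrows the spread of *LMNB1* and *LMNB2* and shifts their group means by construction, and the following values are a description and no test of a lamin difference. Between Holoclone and Paraclone cells the differences were then 1.15 for *LMNB1* and 0.62 for *LMNB2* in Panc89 and 0.51 and 0.78 in Panc1. All of these but the 0.51 had an adjusted p under 0.05 in this fit. Between lines, the same held for *LMNB1* in Holoclone (−1.18) and Paraclone cells (−1.82) and for *LMNB2* in parental cells (0.73). Against parental cells, it held for *LMNB1* in Panc89 Paraclone (−2.20) and Panc89 Holoclone cells (−1.05), and for *LMNB2* in Panc89 Paraclone (−0.85) and Panc1 Holoclone cells (0.67). *LMNA* passed in the difference between the lines (0.61, adjusted p = 0.0356). Of the 16 proliferation genes, whose own level chose the libraries, 14 were higher in Panc1 Holoclone than Paraclone cells and 12 in Panc89 in this fit, whereas over all libraries their medians were 0.62 and 0.81 and no gene passed in limma. Calls over all genes rose as well (Panc1 6006 before and 7932 after, Panc89 5746 before and 7682 after). The part of proliferation in the lamin differences was not tested.

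The balance of A-type over B-type lamin mRNA, log2 of *LMNA* TPM over the sum of *LMNB1* and *LMNB2* TPM, was above 0 in every library. It was 1.35, 0.73 and 1.20 in Panc1 Holoclone and 1.51, 2.08 and 2.39 in Panc1 Paraclone cells, without overlap (difference −0.90, exact permutation p = 0.1, two-sided, the smallest possible). In Panc89 it was 0.33, 1.16 and 1.31 in Holoclone and 1.92, 0.64 and 1.70 in Paraclone cells, which overlapped (difference −0.48, exact permutation p = 0.4). Parental cells had 1.65, 1.08 and 1.56 in Panc1 and 0.30, 0.67 and 0.24 in Panc89.

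Of the 10 genes, 7 were tested, and 3 passed the test between Panc1 Holoclone and Paraclone cells (*NES* higher in Holoclone, *VIM* and *LMNA* lower), against 37.3% of all tested genes (27.4% higher and 9.97% lower). Between Panc89 Holoclone and Paraclone cells 2 passed (*NEFL* higher, *SYNM* lower), against 35.7% of all tested genes (22.4% higher and 13.3% lower). *NEFL* entered the test only through its Panc89 Holoclone libraries. Because 3 of the 10 genes were not tested, these counts and shares do not have the same base, and nothing is read from them about the genes as a group. The test of the difference between the lines was passed by *NES*, *SYNM* and *NEFL* (35.1% of all tested genes). Between parental lines 5 passed, with *NES*, *VIM*, *SYNM* and *LMNA* lower and *NEFL* higher in Panc89 (66.0% of all tested genes). Between Holoclone cells 4 passed, *NES*, *VIM* and *SYNM* being lower and *NEFL* higher in Panc89 (65.8%), and between Paraclone cells 4, *NES*, *VIM*, *SYNM* and *LMNA* being lower in Panc89 (60.7%). Against parental cells, 2 passed for Panc1 Holoclone (*NES* and *VIM*, background 10.9%) and 1 each for Panc1 Paraclone (*NES*, 28.6%), Panc89 Holoclone (*NEFL*, 24.7%) and Panc89 Paraclone cells (*SYNM*, 19.4%).

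**Figure D4:**
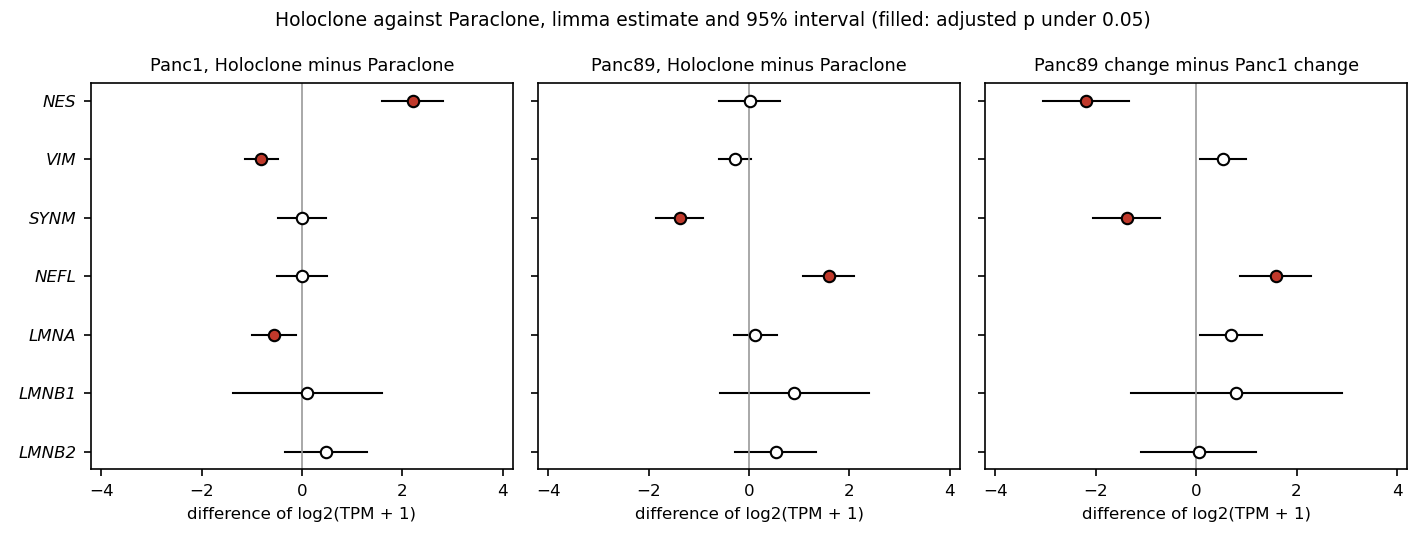
Holoclone minus Paraclone difference of log2(TPM + 1) for the 7 tested genes in Panc1 (left) and Panc89 (middle), and the Panc89 difference minus the Panc1 difference (right). Points are limma estimates, lines their 95% intervals, and filled points passed an adjusted p of 0.05. *NES*, *VIM* and *LMNA* are filled in Panc1, *SYNM* and *NEFL* in Panc89, and *NES*, *SYNM* and *NEFL* in the difference. *NEFL* passed the filter on low values only through Panc89 Holoclone libraries.

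The median difference of all 16093 tested genes between Panc1 Holoclone and Paraclone cells was 0.19 on the deposited scale, and it was 0 after median-of-ratios scaling. Of all calls in this comparison 73.3% were higher in Holoclone cells before and 47.7% after that scaling. In Panc89 these shares were 62.8% and 49.3%. The share of higher calls also moved from 41.6% to 51.8% for Panc89 against Panc1 parental cells, from 25.6% to 53% for Panc1 Paraclone against parental cells and from 65.2% to 51% for Panc89 Holoclone against parental cells. After it, *NES* (1.95), *VIM* (−1.08) and *LMNA* (−0.84) kept their direction and their call in Panc1, as did *SYNM* (−1.49) and *NEFL* (1.56) in Panc89.

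The other cytoplasmic genes of the family outside the keratins were *GFAP*, *PRPH*, *NEFH*, *BFSP1* and *BFSP2*. *BFSP1*, which codes for the lens filament protein filensin, was expressed in Panc1 at log2(TPM + 1) values of 2.66 to 3.92 and in Panc89 at 0.30 to 1.06, and was lower in Panc89 parental cells (−2.39, limma adjusted p = 1.03e-07). *PRPH*, the peripheral neuron filament peripherin, was higher in Panc1 Holoclone (1.86, 1.86 and 2.27) than Paraclone cells (0.45, 0.69 and 0.71) by 1.38 (limma adjusted p = 0.00485). Without the 4 libraries of high proliferation level, *BFSP1* also passed between Holoclone and Paraclone cells of Panc1 (−0.59, adjusted p = 0.00447) and Panc89 (0.51, adjusted p = 0.0167). Calls over all genes rose in these comparisons as well. In Panc89 the *PRPH* difference was 0.49 (limma adjusted p = 0.290). *GFAP*, the astrocyte filament, stayed under the filter although Panc1 Holoclone libraries had 0.82, 2.36 and 1.34, and *NEFH* and *BFSP2* did not exceed 0.07 and 0.52.

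Among simple epithelial keratins, 4 of 5 listed genes were tested (*KRT7*, *KRT8*, *KRT18* and *KRT19*, with *KRT20* under the filter). In Panc1 *KRT19* was lower in Holoclone cells (−2.48, limma adjusted p = 7.18e-06). *KRT8* and *KRT18* were higher there, calls which were lost after median-of-ratios scaling. In limma the *KRT8* call was also lost without the filter on low values (adjusted p = 0.0694), with these groups fitted alone (adjusted p = 0.132) and after upper quartile scaling (adjusted p = 0.130). In Panc89 *KRT7* was lower (−1.05, limma adjusted p = 0.00242), as were *KRT8* and *KRT18*, and *KRT19* did not pass (0.37, limma adjusted p = 0.347). The Holoclone against Paraclone change differed between the lines for *KRT8*, *KRT18* and *KRT19* (−1.73, −1.39 and 2.85, each with an adjusted p of at most 0.00179 in limma).

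Plakins and other linkers tie intermediate filaments to desmosomes, actin and microtubules. Of 16 listed genes 15 were tested. In Panc1, 5 were higher and 2 lower in Holoclone than Paraclone cells, against 27.4% and 9.97% of all tested genes (median difference of the list 0.16, of all genes 0.19). The leading genes were *DSP* (desmoplakin, 3.75, limma adjusted p = 1.40e-11), *EVPL* (envoplakin, 2.09, limma adjusted p = 1.52e-05) and *PPL* (periplakin, 1.99, limma adjusted p = 3.99e-06). In Panc89, 1 was higher and 5 were lower, against 22.4% and 13.3% of all tested genes (median −0.21, of all genes 0.09). *DST* (dystonin, 1.70, limma adjusted p = 0.000289) was higher, and *DSP* (−0.76, limma adjusted p = 0.000361) and *EVPL* (−0.76, limma adjusted p = 0.0329) were lower. *DSP* lay at 0.32 to 0.42 in Panc1 Paraclone and at 4.07 to 4.17 in Panc1 Holoclone libraries on the log2(TPM + 1) scale.

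Of 20 proteins of the nuclear envelope which bind lamins, 19 were tested. In Panc1, 9 were higher and 1 was lower in Holoclone cells, against 27.4% and 9.97% of all tested genes (median 0.41, all genes 0.19). After median-of-ratios scaling 4 were higher and 1 was lower. Without the 4 libraries of high proliferation level, where calls over all genes rose from 6006 to 7932, 14 were higher and 1 was lower. *SYNE2*, a nesprin that couples the nucleus to actin, was higher by 1.53 (limma adjusted p = 0.000299), *SUN2*, its partner in the inner membrane, lower (−1.23, limma adjusted p = 0.000813), and the nucleoporin *NUP88* higher by 0.69 (limma adjusted p = 0.00694). In Panc89, 4 were higher and 3 lower, against 22.4% and 13.3% of all tested genes (median 0.29, all genes 0.09). Without the 4 libraries 7 were higher and 4 lower. Calls over all genes then rose from 5746 to 7682. Proliferation level chose those libraries, so the counts without them are a description and no test. *SYNE4*, an epithelial nesprin that connects to kinesin, was lower in Holoclone cells (−2.97, limma adjusted p = 6.01e-09), *ANKLE2* was lower (−0.87, limma adjusted p = 0.000787), and *NUP88* was higher by 0.77 (limma adjusted p = 0.00373). Of 6 lamin processing enzymes, 1 was higher in Panc1 Holoclone cells, or 4 without the 4 libraries (*RCE1*, a protease of the prenylation pathway, 0.71, limma adjusted p = 0.000172). In Panc89, *RCE1* was higher (0.43, limma adjusted p = 0.00790) and *FNTA*, a farnesyltransferase subunit, lower (−0.48, limma adjusted p = 0.0483).

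Kinases and phosphatases of filament proteins were counted next, with 16 of 16 tested. The list holds both kinds of enzyme, so its counts give no direction of filament disassembly. In Panc1, 7 were higher and 1 was lower in Holoclone cells (median 0.55, all genes 0.19, with 27.4% of all genes higher and 9.97% lower), which became 2 higher and 2 lower after median-of-ratios scaling and 12 higher and 1 lower without the 4 libraries of high proliferation level. *PAK1* was lower (−1.02, limma adjusted p = 0.000104), and *PAK2* (0.93, limma adjusted p = 7.25e-06) and the phosphatase subunit *PPP2R2A* (0.82, limma adjusted p = 0.000176) were higher. In Panc89, 2 were higher and 2 lower (median 0.28, all genes 0.09), or 9 higher and 3 lower without those libraries, with *PRKCA*, a vimentin kinase, higher by 1.18 (limma adjusted p = 4.06e-05), and *CDK5* (−0.88, limma adjusted p = 0.000699) and *ROCK2* (−0.52, limma adjusted p = 0.00501) lower. The 4 libraries were picked by their proliferation level, so the kinase and phosphatase counts without them are a description and no test. With them left out, 7932 of all tested genes passed in Panc1 (6006 with every library kept). In Panc89, 7682 passed (5746 with every library kept). Any part of proliferation in these counts was not tested. Of 12 chaperones and proteases of filaments 11 were tested. In Panc1, 3 were higher and 2 lower (median 0.17), a balance that turned to 1 higher and 3 lower after median-of-ratios scaling, with the calpain *CAPN2* lower (−1.45, limma adjusted p = 8.74e-05) and the small heat shock protein *HSPB1* lower (−1.30, limma adjusted p = 0.00856). In Panc89, 2 were higher and 5 lower (median −0.44), against 22.4% and 13.3% of all tested genes. Among the lower were *HSPA1A* (−1.41, limma adjusted p = 0.0191), *HSPA8* (−1.14, limma adjusted p = 0.00959) and *CAPN2* (−0.84, limma adjusted p = 0.00663).

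Of 24 transcription factors known to act at *NES* or *VIM*, 19 were tested. In Panc1, 6 were higher and 3 lower in Holoclone cells, against 27.4% and 9.97% of all tested genes (median 0.23, all genes 0.19). After median-of-ratios scaling 4 were higher and 4 lower. *KLF4* (−1.77, limma adjusted p = 0.000601) and *SNAI1*, which codes for Snail (−1.29, limma adjusted p = 4.79e-05), were lower and *SP3* was higher (1.02, limma adjusted p = 3.12e-05). In Panc89, 3 were higher and 6 lower, against 22.4% and 13.3% of all tested genes (median −0.08, all genes 0.09). *SOX2*, a stemness factor that activates a neural *NES* enhancer, was higher in Panc89 Holoclone cells by 4.35 (limma adjusted p = 1.02e-07), with log2(TPM + 1) values of 6.03, 5.07 and 4.2 against 0.32, 0.93 and 0.99 in Paraclone cells, while *NES* in these Holoclone libraries was 1.26, 0.33 and 0.15 on the same scale. Parental Panc89 cells had *SOX2* values of 4.98, 4.25 and 5.08. In Panc1, *SOX2* did not exceed 0.46 in any library. *SNAI1* was lower (−2.50, limma adjusted p = 4.71e-08) and *KLF4* higher (1.87, limma adjusted p = 0.000415) in Panc89 Holoclone cells.

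Genes most like *NES* over the 18 libraries, by Pearson's r of log2(TPM + 1) and given as a description, were *MXRA5* (r = 0.987), *UBE2G1* (0.984), *ERVK9-11* (0.978), *TSBP1-AS1* (0.975) and *WNT5B* (0.975). In all, 572 of 16092 genes reached r of 0.9 with *NES*. *WNT5B*, a non-canonical Wnt ligand, took the same steps, from 5.29 to 5.88 in parental, 3.99 to 4.48 in Holoclone and 2.72 to 2.97 in Paraclone cells of Panc1, and at most 0.30 in Panc89. Within the 9 Panc1 libraries the closest were *CYB5R2* (0.986), *GATA2* (0.985) and *MOCS1* (0.984). *CYB5R2* was between 3.70 and 5.27 in Panc89, so its likeness to *NES* was limited to Panc1.

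For *VIM*, the closest over 18 libraries were *PPP1R14A* (r = 0.999), *HOXB2* (0.998), *KCNMA1* (0.998), *STK11* (0.998) and *MPP1* (0.998), and 1626 of 16092 genes reached 0.9. Within Panc1 they were *AK6* (0.990), *GALNT2* (0.962) and *LDHA* (0.962). *LMNA* was closest to *NDUFS6* (0.993), *PSMA5* (0.982) and *PLIN3* (0.976) in Panc1 and to *SLC25A15* (0.977), *PLP2* (0.972) and *TGFBI* (0.962) in Panc89. *LMNB1* was closest to *HASPIN* (0.987), a mitotic histone kinase, *GRPEL1* (0.983) and *ERCC6L* (0.982) in Panc1, and to *ASF1B* (0.996), a histone chaperone, *SKA2* (0.994) and *PARPBP* (0.993) in Panc89. In Panc89, 591 of 14427 genes reached r of 0.9 with *LMNB1*, against 119 of 14107 in Panc1. Libraries in these correlations share lines, clones and normalisation.

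The genes beside *NES* on chromosome 1 differed less than *NES*. Of the 20 nearest tested genes, 10 on each side over 763 kb, 3 were higher and 1 was lower in Panc1 Holoclone than Paraclone cells, against 37.3% of all tested genes in either direction, with a median difference of 0.13 and a range from −1.09 (*GLMP*) to 1.36 (*TSACC*). The 2.21 of *NES* lay above that range. Around *VIM*, the 20 nearest tested genes spanned 6567 kb of chromosome 10. Between parental lines 3 of them were higher and 10 lower in Panc89, where 66.0% of all tested genes passed in either direction, with a median of −0.996 and a range from −2.23 (*MIR1915HG*) to 3.71 (*PLXDC2*), and the −11.78 of *VIM* lay far below it. Between Panc1 Holoclone and Paraclone cells, 5 of these neighbours were higher and 2 lower (median 0.28).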

How the data were processed

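RNA of 18 samples was sequenced by the authors as stranded, paired-end mRNA libraries, quantified with kallisto 0.46.1 on an Ensembl GRCh38 transcriptome and summarised per gene as scaled TPM with tximport. The deposited values are log2(TPM + 1), checked from their range and sums, and hold no read totals. Whether kallisto used the strand is not given in the sources used here. Depth is therefore unknown, and no counting interval was computed. Groups followed the sample labels. The 16093 genes that reached 1 TPM in 3 or more libraries were fitted with limma 3.58.1 (trend, R 4.3.3) on 6 group means, with Benjamini-Hochberg adjustment and an adjusted p under 0.05, two-sided. Ratios were tested by exact permutation in Python 3.11.15 with NumPy 2.4.6. The scripts were tested on simulated data.

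The members and gene lists were chosen with earlier results of these data known. Named were all members, the other non-keratin filament genes, up to 3 genes per list and comparison with the largest change among those past the threshold and at least 10 TPM in the higher group, simple keratins, genes with a member's symbol in their own, the most alike genes and the range of neighbours. 1 gene that this rule named is not reported here. *SOX2* parental values and *DSP* levels were added after their values were seen. Alternatives were the pseudocount (0.1), no filter, groups alone, replicate blocks, upper quartile and median-of-ratios scaling, a fold threshold, robust variances and leaving out libraries.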

Additional observations from a re-analysis of the deposited data

Results flagged for a closer look

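For 3 genes the Holoclone against Paraclone change differed between Panc89 and Panc1 in limma's test of the interaction. The Panc89 change minus the Panc1 change was −2.19 for *NES* (adjusted p = 0.000575), −1.39 for *SYNM* (adjusted p = 0.00306) and 1.58 for *NEFL* (adjusted p = 0.00174) on the log2(TPM + 1) scale. *NES* differed between the variants in Panc1 (2.21), and *SYNM* (−1.38) and *NEFL* (1.58) in Panc89. In Panc89 *NES* lay between 0.109 and 1.40 TPM, where this scale understates fold changes, so its interaction largely restates the Panc1 difference. *NEFL* was at 0 in all Panc1 Holoclone and Paraclone libraries and passed the filter on low values only through Panc89 Holoclone libraries, so its interaction restates the Panc89 difference and is no separate result. Over 22 alternatives the difference ranged from −2.87 to −1.98 for *NES*, from −2.18 to −1.21 for *SYNM* and from 1.17 to 4.28 for *NEFL*, with an adjusted p of at most 0.0116, 0.0110 and 0.00963.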

How the results depend on the processing

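Over the members, 1036 of the recomputed values kept direction and call, 26 lost the call, 34 gained it and 45 changed direction, where a difference under 0.005 was given no direction. The causes were not tested. Replicate numbers did not pair the libraries: the deviations of same-numbered libraries of a line had r from −0.318 to 0.190, and 1 of 18 libraries was closest to its own number. With the replicate number as a block the number of members called was 3 and 2 for Holoclone against Paraclone in Panc1 and Panc89, as without it, and the *KRT18* call in Panc1 was lost (adjusted p = 0.0802). The counts of members called moved by more than 1.5 times as follows. Requiring an absolute log2 difference over 1 left 1 for Panc1 Holoclone against Paraclone, 3 for the parental lines, 1 for Panc1 Holoclone against parental and 0 for both Panc89 variants against parental. With 0.1 TPM added, they were 1 for Panc1 Holoclone, 2 for Panc89 Holoclone and 3 for Panc89 Paraclone against parental, and with the groups alone 1, 0 and 3. Upper quartile and median-of-ratios scaling each gave 2 for Panc89 Paraclone against parental and 5 for the difference between lines, and median-of-ratios scaling 2 for Panc1 Paraclone against parental. Without the 4 libraries of high proliferation level they were 4 for Panc89 Holoclone against Paraclone, 3 for Panc89 Holoclone and 4 for Panc89 Paraclone against parental, and they rose by 1 in all other comparisons except Panc1 Paraclone against parental. Calls over all genes also rose in every comparison without these libraries. Leaving out 1 library at a time gave 2 to 4 for Panc89 Holoclone against Paraclone (4 without Paraclone replicate 2), and 1 to 2 for Panc1 Holoclone, Panc89 Holoclone and Panc89 Paraclone against parental.

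Changes of direction concerned differences that had not passed the test over all libraries. For Holoclone against Paraclone in Panc1, *LMNB1* turned to −0.14 and −0.17 under upper quartile and median-of-ratios scaling, and without 1 library *LMNB1* ranged from −0.26 to 0.51 and *BFSP1* from −0.59 to 0.027. In Panc89, *NES* turned to −0.24 with 0.1 TPM added, −0.034 and −0.053 under the scalings and −0.39 without the 4 libraries (−0.33 to 0.23 without 1 library), and *LMNA* to −0.011 under median-of-ratios scaling (−0.0058 to 0.30). The Panc89 ratio of *VIM* to keratins turned to 0.636 with 1 TPM added. Between lines without the 4 libraries, *LMNB1* was 0.016 in parental cells (−0.63 to 0.016 without 1 library), and *LMNB2* was −0.17 in Holoclone (−0.17 to 0.40) and −0.0081 in Paraclone cells (−0.32 to 0.41), while *LMNB1* of Holoclone cells ranged from −1.18 (adjusted p = 0.00120 for *LMNB1* without the 4 libraries) to 0.023. For Panc1 Holoclone against parental without the 4 libraries, *SYNM* was 0.16 (−0.27 to 0.16) and *LMNB1* 0.15 (−0.50 to 0.15). For Panc1 Paraclone against parental, *SYNM* was 0.089 and 0.13 under the scalings and 0.11 without the 4 libraries (−0.27 to 0.16), *LMNB2* 0.035 and 0.076 under the scalings (−0.46 to 0.19), and *LMNB1* ranged from −0.79 to 0.042. For Panc89 Holoclone against parental, *NES* ranged from −0.47 to 0.087, *LMNB1* from −1.05 to 0.15 and *LMNB2* from −0.23 to 0.34, with *LMNB2* at −0.23 without the 4 libraries. In the difference between lines, *VIM* turned to −0.26 with 0.1 TPM added, and *LMNB2* to −0.16 without the 4 libraries (−0.28 to 0.48). Values below 1 TPM depend on the constant added, and without read totals their counting error is unknown.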
